A study of Mus musculus with 18 samples.

Results

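Macrophage and monocyte transcripts were followed in 18 bulk tumours, as a set of 37 genes named one by one for macrophage identity, growth factor signalling, monocyte trafficking, complement, Fc receptors, scavenging, lipid handling, arginine use and microbial sensing. The genes were chosen by name, without use of a threshold on these tumours but with earlier results of these data known. All 37 were among the 54532 genes of the count table, and all 37 passed a filter on low counts that left 17123 genes to test. Every member had reads in all 18 tumours.

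The tumours grew from PB2 mouse breast cancer cells of either genotype p95HER2 (8 tumours), a truncated, membrane-anchored form of the receptor tyrosine kinase HER2, or genotype EV (10 tumours), an abbreviation that the labels do not spell out. Mice of both groups ate the doxycycline diet DOX625. All tumours derive from 1 cell line. The labels give no sex, age, host strain or batch, do not name the promoter behind p95HER2, and call the tumours xenografts without naming the immune cells the hosts have. Whether every tumour had its own mouse is not said, so the p-values reflect spread among these samples, which may be partly technical. Library totals ran from 32686558 to 34804640 reads in p95HER2 tumours and from 35030920 to 38464541 reads in EV tumours, with no overlap. In the tumour tags p95HER2 1 has a number far under the rest and the other p95HER2 tumours come before the EV tumours, so genotype and anything that followed library size or tag order cannot be told apart.

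Levels are given as CPM, counts per 1000000 of the library total after scaling by the trimmed mean of M-values (TMM). A gene was called where edgeR's quasi-likelihood test gave an adjusted p under 0.05, with Benjamini-Hochberg adjustment over all genes tested, and every adjusted p of a single gene below is from that test. A log2 fold change is p95HER2 minus EV, given with its standard error (SE). Erbb2, the gene of HER2, checked the labels. It had 122 CPM at the lowest, 143 at the median and 231 at the highest in p95HER2 tumours, against 60.4, 68.1 and 74.9 CPM in EV tumours. Its groups did not overlap, with a log2 fold change of 1.22 (SE 0.10, adjusted p = 2.889e-07), and reads from a human transgene would be counted at the mouse gene only in part.

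Macrophages in a tumour come from circulating monocytes, which enter through the chemokine receptor CCR2, and from cells already resident in the tissue. Both depend on the CSF1 receptor, whose ligand CSF1 is made by tumour and stromal cells, and on the transcription factor PU.1, encoded by Spi1. Mature macrophages carry phagocytic Fc and scavenger receptors, secrete complement C1q, and adjust lipid and arginine metabolism to their surroundings. Resident-type macrophages are often recognised by MRC1, FOLR2 and SIGLEC1, and lipid-laden ones by TREM2, APOE and GPNMB.

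Of the 37 genes, 19 fell and 1 rose in p95HER2 tumours, and 17 were not called. The background for these counts was 4.45% of all tested genes called lower and 5.73% called higher. The members' median log2 fold change was -0.60, against -0.01 over all genes tested, and 32 of the 37 were negative, or 86.5% against 52.3% of all genes. The falls reached broad macrophage, monocyte, Fc receptor, resident-type and lipid-associated genes. The log2 fold changes of Csf1, Csf2ra, Arg1, Nos2 and Cd14 were positive, and those of Tlr2 and Msr1 were near 0. In bulk tumour RNA, fewer macrophages and less of each RNA per macrophage cannot be told apart.

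**Figure D1:**
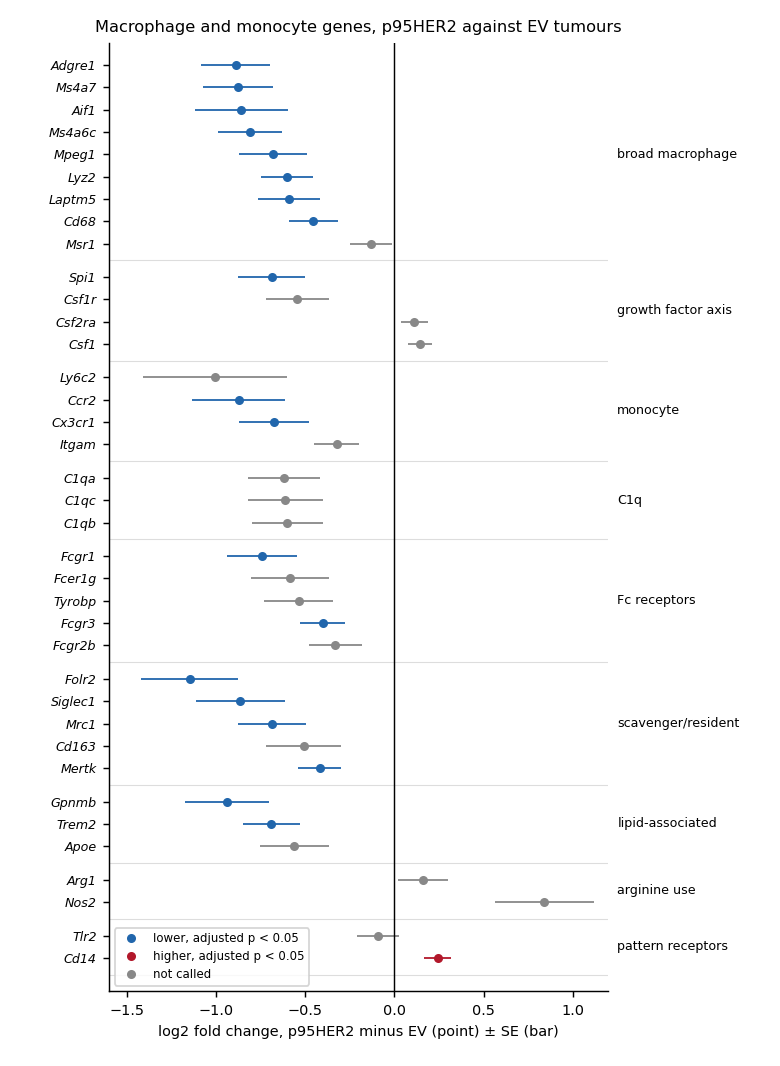
Log2 fold change of each of the 37 genes, p95HER2 minus EV, with its standard error, grouped by role; 0 means no difference between the group means. The called genes lie left of 0 except Cd14, and Folr2 at -1.15 is the lowest of them.

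The 17 uncalled genes did not form 1 class. For 11 of them the log2 fold change lay between -1.01 and -0.32 with adjusted p from 0.0586 to 0.167: Csf1r, Ly6c2, Itgam, C1qa, C1qb, C1qc, Fcgr2b, Fcer1g, Tyrobp, Cd163 and Apoe. A further 5, Msr1, Csf1, Csf2ra, Arg1 and Tlr2, lay between -0.13 and 0.16, and their 95% intervals together spanned -0.38 to 0.45. Nos2 alone lay far on the other side, at 0.84. No member had groups that were fully separated, though without EV 3 there were 2 and without EV 10 there was 1 with every p95HER2 tumour below every EV tumour. Over all tested genes 0.111% had every p95HER2 tumour below every EV tumour and 0.677% had every one above.

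Of the broad macrophage genes 8 of 9 fell, with a median log2 fold change of -0.68. Adgre1 encodes F4/80, the adhesion receptor used to identify mouse macrophages, and lies at chr17:57358691-57483527 on the plus strand (mm10). It had 10.2, 18 and 24.4 CPM (lowest, median, highest) in p95HER2 tumours and 15.6, 34.1 and 48.8 CPM in EV tumours. Of the 10 EV tumours, 8 lay above every p95HER2 tumour, and the log2 fold change was -0.89 (SE 0.19, adjusted p = 0.00741). Ms4a7, a membrane protein of the MS4A family, had 11.4, 19.4 and 29.0 CPM in p95HER2 tumours, against 16.6, 35.8 and 58.5 CPM in EV tumours. A single EV tumour reached into the p95HER2 range, and the fold change was -0.88 (SE 0.20, adjusted p = 0.00935). Its relative Ms4a6c averaged 14.3 ± 3.59 CPM in p95HER2 tumours and 25.0 ± 7.16 CPM in EV tumours (SD, n = 8 and 10), a log2 difference of -0.81 (adjusted p = 0.00839).

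Lyz2, the lysozyme of myeloid cells, was the most abundant broad marker. It had 109, 156 and 252 CPM in p95HER2 tumours and 183, 266 and 313 CPM in EV tumours, a log2 fold change of -0.60 (SE 0.14, adjusted p = 0.0131). The ranges overlapped, but 8 of 8 p95HER2 tumours lay under the EV median. Aif1, the actin-binding protein IBA1, averaged 10.9 ± 4.58 CPM in p95HER2 tumours and 19.8 ± 7.22 CPM in EV tumours, at -0.86 (adjusted p = 0.0450). Mpeg1, which encodes the pore-forming perforin-2, averaged 112 ± 24.7 CPM in p95HER2 tumours and 179 ± 61.9 CPM in EV tumours, at -0.68 (adjusted p = 0.0298). Laptm5, a lysosomal membrane protein of blood cells, averaged 46.1 ± 11.5 CPM in p95HER2 tumours and 69.4 ± 18.01 CPM in EV tumours, at -0.59 (adjusted p = 0.0375). Cd68, a lysosomal glycoprotein, had the smallest fall of the role at -0.45 (adjusted p = 0.0436), with 31.5 ± 3.14 CPM in p95HER2 tumours and 43.2 ± 12.3 CPM in EV tumours. Msr1, a class A scavenger receptor, was the uncalled member, with 12.9 ± 2.18 CPM in p95HER2 tumours and 14.2 ± 2.70 CPM in EV tumours and a 95% interval of -0.38 to 0.12 on the log2 scale.

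**Figure D2:**
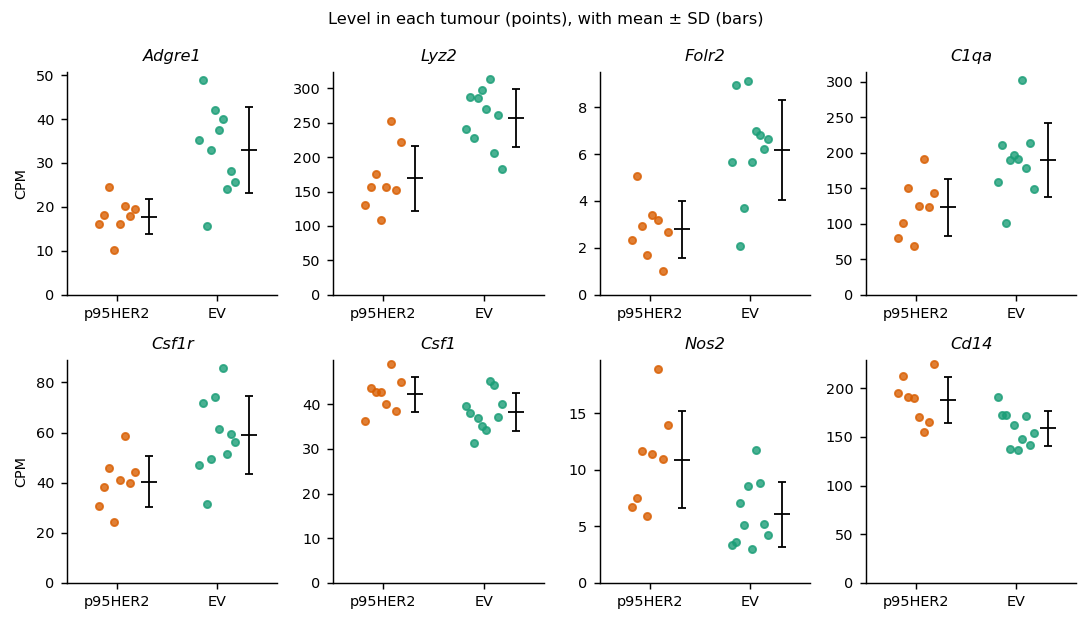
CPM in each tumour for 8 genes, p95HER2 left of EV, 1 point a tumour, with bars at the group mean and its SD. Adgre1, Lyz2 and Folr2 sit lower in p95HER2 tumours with some overlap, Csf1 and Nos2 do not, and Cd14 sits slightly higher.

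The growth factor axis was split. Csf1r, the receptor for CSF1 and interleukin-34, lies at chr18:61100598-61132149 on the plus strand. It had 24.4, 40.4 and 58.6 CPM in p95HER2 tumours and 31.6, 57.9 and 85.9 CPM in EV tumours, with a log2 fold change of -0.54 (SE 0.18, adjusted p = 0.0586). That is just past the threshold, with 7 of 8 p95HER2 tumours below the EV median. Csf1, the ligand, had 36.2, 42.7 and 49.1 CPM in p95HER2 tumours, against 31.4, 37.6 and 45.2 CPM in EV tumours, a log2 difference of 0.14 (SE 0.07, adjusted p = 0.188, 95% interval 0.00 to 0.29). Here 7 of 8 p95HER2 tumours lay above the EV median. Csf2ra, the alpha chain of the GM-CSF receptor, averaged 39.6 ± 4.94 CPM in p95HER2 tumours and 36.7 ± 4.05 CPM in EV tumours (0.11, adjusted p = 0.369). Spi1 fell, with 12.9 ± 4.50 CPM in p95HER2 tumours and 20.8 ± 4.27 CPM in EV tumours (-0.69, SE 0.19, adjusted p = 0.0253).

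Ligand and receptor were also set against each other within each tumour. The log2 difference Csf1 minus Csf1r was 0.10 ± 0.32 in p95HER2 tumours and -0.58 ± 0.36 in EV tumours (SD, n = 8 and 10), with 8 of 8 p95HER2 tumours over the EV median. The gap of 0.68 had p = 0.000686 by exact permutation (two-sided, 43758 assignments), or 0.00274 adjusted over 4 such gene pairs. These pairs were chosen after the values were seen, which can favour a low p. The adjustment over 4 pairs does not cover the pairs passed over, so the p is no test of the pair.

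Among monocyte genes 2 of 4 were called. Ccr2 had 2.98, 10.3 and 14.03 CPM in p95HER2 tumours and 8.17, 18.9 and 25.5 CPM in EV tumours (-0.87, SE 0.26, adjusted p = 0.0407). Cx3cr1, the fractalkine receptor of patrolling monocytes and resident macrophages, averaged 15.8 ± 3.82 CPM in p95HER2 tumours and 25.2 ± 8.08 CPM in EV tumours (-0.67, SE 0.20, adjusted p = 0.0355). For both genes all 8 p95HER2 tumours were under the EV median and 6 of 10 EV tumours were above every p95HER2 tumour. Ly6c2, a surface antigen of inflammatory monocytes, had a larger difference but a wider spread, with 0.686, 3.40 and 5.85 CPM in p95HER2 tumours against 1.63, 8.43 and 12.8 CPM in EV tumours (-1.01, SE 0.40, adjusted p = 0.120). Reads shared with its near-identical neighbour Ly6c1 make its level uncertain. Itgam, the CD11b integrin chain that neutrophils carry too, averaged 5.86 ± 1.03 CPM in p95HER2 tumours and 7.33 ± 1.34 CPM in EV tumours (-0.32, adjusted p = 0.106).

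The 3 chains of complement C1q, which form the recognition part of the classical pathway, had nearly the same difference. C1qa, C1qb and C1qc lie side by side on chromosome 4, between 136880129 and 136898803 on the minus strand. C1qa had 69.1, 125 and 192 CPM in p95HER2 tumours and 101, 191 and 302 CPM in EV tumours. Its log2 fold change was -0.62 (SE 0.20, adjusted p = 0.0591), that of C1qb -0.60 (adjusted p = 0.0645) and that of C1qc -0.61 (adjusted p = 0.0698). None of the 3 was called by edgeR, all 3 had an unadjusted p under 0.05, and DESeq2 and limma with voom each called all 3. DESeq2 called 25 members lower and voom 21, against 19 by edgeR. The share of all genes that DESeq2 or voom called is not given, here or for the genes and lists below. Per kb of exon they stood high among the members, with C1qa at 118 CPM per kb in p95HER2 tumours and 182 in EV tumours, behind Apoe and Lyz2.

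Of the Fc receptor genes 2 of 5 fell. Fcgr1, the high-affinity activating receptor for IgG, had 4.06, 8.53 and 12.7 CPM in p95HER2 tumours and 7.53, 14.3 and 22.0 CPM in EV tumours (-0.74, SE 0.20, adjusted p = 0.0207). Here 8 of 10 EV tumours stood above every p95HER2 tumour. Fcgr3, a low-affinity activating receptor, averaged 19.4 ± 4.67 CPM in p95HER2 tumours and 25.7 ± 3.82 CPM in EV tumours (-0.40, SE 0.13, adjusted p = 0.0467). Fcgr2b, the inhibitory receptor, averaged 23.8 ± 6.84 and 29.9 ± 4.87 CPM in p95HER2 and EV tumours (-0.33, adjusted p = 0.167). Within tumours the log2 difference Fcgr2b minus Fcgr1 was 1.44 ± 0.25 in p95HER2 tumours and 1.06 ± 0.26 in EV tumours, a gap of 0.38 (two-sided exact permutation p = 0.00599, 0.0120 adjusted over the 4 pairs). In this pair, also chosen after the values were seen, 7 of 8 p95HER2 tumours lay above the EV median. Fcgr3, the other activating receptor, was not paired with Fcgr2b, and their log2 fold changes of -0.40 and -0.33 were close. The signalling adaptors Fcer1g, at -0.59 (adjusted p = 0.0953), and Tyrobp, at -0.54 (adjusted p = 0.0857), were not called.

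Resident-type and scavenging genes fell in 4 of 5 cases. Folr2, the folate receptor beta of tissue-resident macrophages, lies at chr7:101839988-101857194 on the minus strand and had the largest fall of the called members. It had 1.03, 2.80 and 5.06 CPM in p95HER2 tumours and 2.10, 6.42 and 9.09 CPM in EV tumours (-1.15, SE 0.27, adjusted p = 0.0119). All 8 p95HER2 tumours lay under the EV median and 8 of 10 EV tumours above every p95HER2 tumour. Siglec1, the sialic acid receptor CD169, averaged 3.88 ± 1.06 CPM in p95HER2 tumours and 7.07 ± 3.06 CPM in EV tumours (-0.86, adjusted p = 0.0328), and per kb of exon it was the lowest member in p95HER2 tumours, as Cd163 was in EV tumours. Mrc1, the mannose receptor CD206, averaged 12.3 ± 3.51 and 19.8 ± 5.601 CPM in p95HER2 and EV tumours (-0.69, adjusted p = 0.0290). Mertk, the kinase receptor for uptake of apoptotic cells, averaged 4.95 ± 0.933 CPM in p95HER2 tumours and 6.62 ± 1.13 CPM in EV tumours (-0.42, adjusted p = 0.0319). Cd163, the haemoglobin scavenger receptor, averaged 3.52 ± 0.829 CPM in p95HER2 tumours and 5.00 ± 2.04 CPM in EV tumours and was not called (-0.51, adjusted p = 0.127).

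Of the lipid-associated genes 2 of 3 fell. Trem2, a lipid-sensing receptor, had 7.43, 9.89 and 12.4 CPM in p95HER2 tumours and 7.67, 14.9 and 22.3 CPM in EV tumours (-0.69, SE 0.16, adjusted p = 0.01005). Gpnmb, a glycoprotein of lipid-laden macrophages, had 6.95, 10.2 and 12.8 CPM in p95HER2 tumours, against 10.5, 16.5 and 44.3 CPM in EV tumours (-0.94, SE 0.24, adjusted p = 0.0174). In both genes 9 of 10 EV tumours lay above every p95HER2 tumour. Which cells gave the Gpnmb reads was not tested. Apoe, the apolipoprotein that macrophages and other cells secrete, was the highest member per kb of exon, at 217 CPM per kb in p95HER2 tumours and 321 in EV tumours. Its log2 fold change of -0.56 had an adjusted p of 0.0723. Trem2 signals through Tyrobp, and their log2 difference within tumours did not separate the groups, at -1.21 ± 0.32 in p95HER2 tumours and -1.14 ± 0.32 in EV tumours (two-sided exact permutation p = 0.636).

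The 2 arginine enzymes and the 2 microbial pattern receptors did not share the fall. Nos2, the inducible nitric oxide synthase, lies at chr11:78920787-78960254. It had 5.87, 11.2 and 18.9 CPM in p95HER2 tumours and 2.99, 5.16 and 11.7 CPM in EV tumours (0.84, SE 0.28, adjusted p = 0.0607). All 8 p95HER2 tumours stood above the EV median, and although edgeR did not call it, DESeq2 and limma with voom did. Arg1, the arginase that uses the same substrate, averaged 75.6 ± 14.9 CPM in p95HER2 tumours and 67.6 ± 15.7 CPM in EV tumours (0.16, adjusted p = 0.502). The log2 difference Nos2 minus Arg1 per tumour was -2.81 ± 0.76 in p95HER2 tumours and -3.46 ± 0.76 in EV tumours, a gap of 0.65 that did not pass (two-sided exact permutation p = 0.0912, 0.122 adjusted over the 4 pairs). With 1 tumour left out the gap ran from 0.49 to 0.83. Its exact permutation p was 0.0322 without p95HER2 4 and 0.0245 without EV 7, neither adjusted. The p for the other left-out tumours is not given here, and this pair too was chosen after the values were seen. Cd14, the co-receptor for bacterial lipopolysaccharide, was the 1 gene that rose, with 155, 191 and 225 CPM in p95HER2 tumours and 137, 158 and 191 CPM in EV tumours (0.24, SE 0.08, adjusted p = 0.0450). Its ranges overlapped widely, with 7 of 8 p95HER2 tumours above the EV median. Tlr2, the receptor for bacterial lipopeptides, averaged 28.0 ± 6.26 CPM in p95HER2 tumours and 29.9 ± 4.50 CPM in EV tumours (-0.09, adjusted p = 0.661). Tumour epithelium, neutrophils and stroma can express Nos2, Cd14, Tlr2, Csf1 and Csf2ra as well, and which cells gave these reads was not tested.

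**Figure D3:**
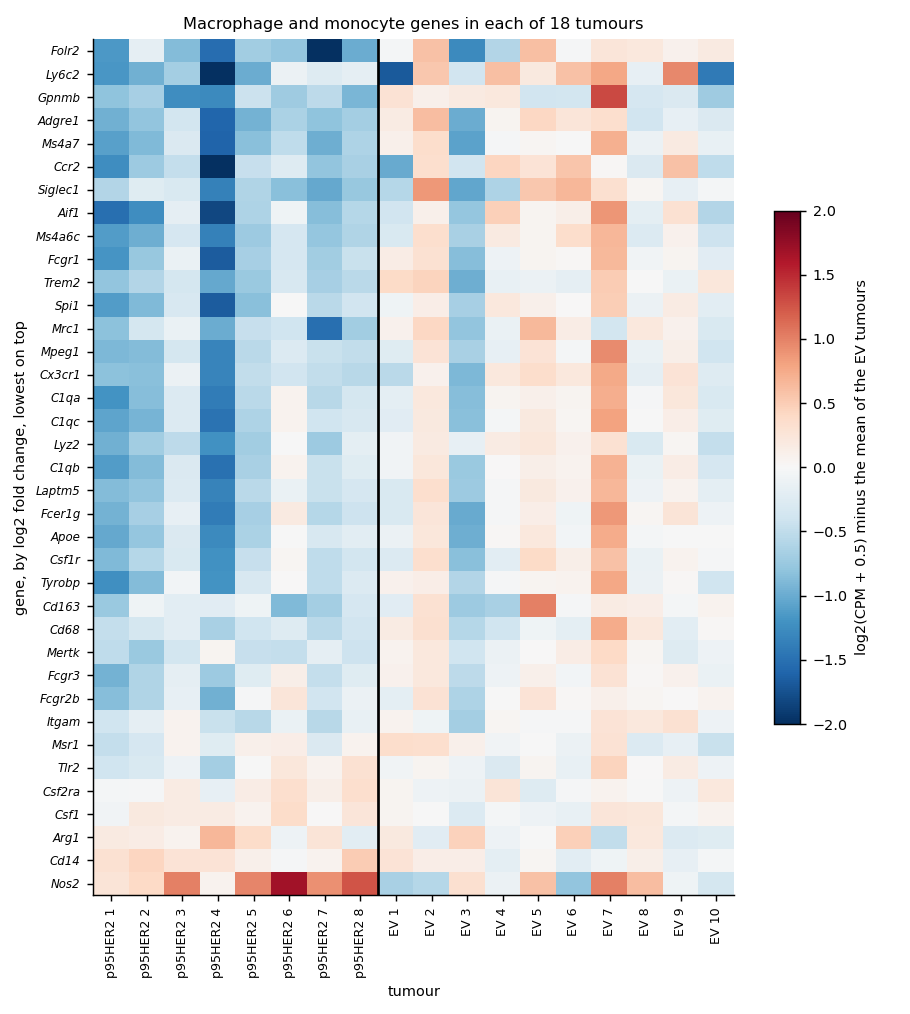
Each row is 1 of the 37 genes and each column 1 tumour, p95HER2 tumours left of EV tumours; colour is the gene's log2(CPM + 0.5) minus its mean over the EV tumours, with the colour scale ending at -2 and 2. EV 3 is the lowest EV tumour for 27 members and p95HER2 4 the lowest p95HER2 tumour for 26.

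The genes moved together from tumour to tumour inside each group as well. EV 7 was the highest EV tumour for 24 of the 37 genes and EV 3 the lowest for 27. In the p95HER2 group, p95HER2 6 was highest for 21 genes and p95HER2 4 lowest for 26. The summed level of the members ran from 1271 CPM through a median of 1847 to 2441 CPM in p95HER2 tumours and from 1666 through 2499 to 3773 CPM in EV tumours, so the sums overlapped. Correlations with Csf1r, computed on log2(CPM + 0.5) within a group, had a median r over the other 36 genes of 0.91 in p95HER2 tumours and 0.78 in EV tumours, with r over 0.8 for 25 and 17 of the genes. Each gene pair shares libraries and total macrophage RNA, so these values describe co-variation and no more.

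A gene of each of 5 roles was taken for a fuller look, giving 10 relations with two-sided permutation p-values, exact for p95HER2 and from 100000 resamples for EV, adjusted over the 10. C1qa followed Csf1r with r = 0.98 and rho = 1 in p95HER2 tumours and r = 0.90 and rho = 0.83 in EV tumours (adjusted permutation p = 0.000248 and 0.00485 for r, and 0.000496 and 0.0228 for rho). Without the 2 tumours farthest from the median Csf1r level the r was 0.98 in p95HER2 tumours and 0.58 in EV tumours, so the EV relation rests in part on EV 3 and EV 7. Ly6c2 had r = 0.88 and rho = 0.83 in p95HER2 tumours (adjusted permutation p = 0.00876 and 0.0513), which was 0.61 without p95HER2 4 and 6, and r = 0.47 and rho = 0.54 in EV tumours (adjusted p = 0.198 and 0.192, permutation). Mrc1 was looser, at r = 0.46 and rho = 0.57 in p95HER2 tumours and r = 0.56 and rho = 0.42 in EV tumours, with adjusted permutation p from 0.155 to 0.257.

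Arg1 ran the other way, with r = -0.79 and rho = -0.71 in p95HER2 tumours and r = -0.66 and rho = -0.48 in EV tumours. The adjusted permutation p was 0.0580 and 0.0701 for r, and 0.144 and 0.208 for rho, so none passed. Without the 2 farthest tumours r was -0.37 in p95HER2 tumours and -0.23 in EV tumours, so the relation rests on those tumours. Csf1 had r = 0.56 and rho = 0.62 in p95HER2 tumours and r = 0.47 and rho = 0.24 in EV tumours, with adjusted permutation p from 0.192 to 0.513, and its EV value was -0.52 without EV 3 and EV 7.

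The other 31 genes were correlated after the values were seen, with adjustment over those 62 relations. Nos2 had r = 0.94 and rho = 0.98 in p95HER2 tumours (adjusted permutation p = 0.00163 and 0.00224, and r = 0.87 without the 2 farthest tumours), and r = 0.18 and rho = 0.22 in EV tumours (adjusted permutation p = 0.659 and 0.605). Folr2 had the opposite layout, at r = 0.36 and rho = 0.38 in p95HER2 tumours (adjusted permutation p = 0.429 and 0.437) and r = 0.86 and rho = 0.83 in EV tumours (adjusted permutation p = 0.00452 and 0.0112, and r = 0.77 without the 2 farthest). Siglec1 had r = 0.40 and rho = 0.12 in p95HER2 tumours (adjusted permutation p = 0.371 and 0.819) and r = 0.85 and rho = 0.83 in EV tumours (adjusted permutation p = 0.00362 and 0.0112, and r = 0.87 without the 2 farthest). Cd14 did not follow Csf1r in either group, at r = -0.34 and rho = -0.26 in p95HER2 tumours and r = -0.32 and rho = -0.30 in EV tumours (adjusted permutation p from 0.429 to 0.605). Gpnmb, a member that fell, did not follow Csf1r either. Its r was 0.34 in p95HER2 tumours and 0.19 in EV tumours, and its rho 0.12 and -0.19. The adjusted permutation p for Gpnmb ran from 0.453 to 0.819. Whether these correlations differ between the groups was not tested.

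**Figure D4:**
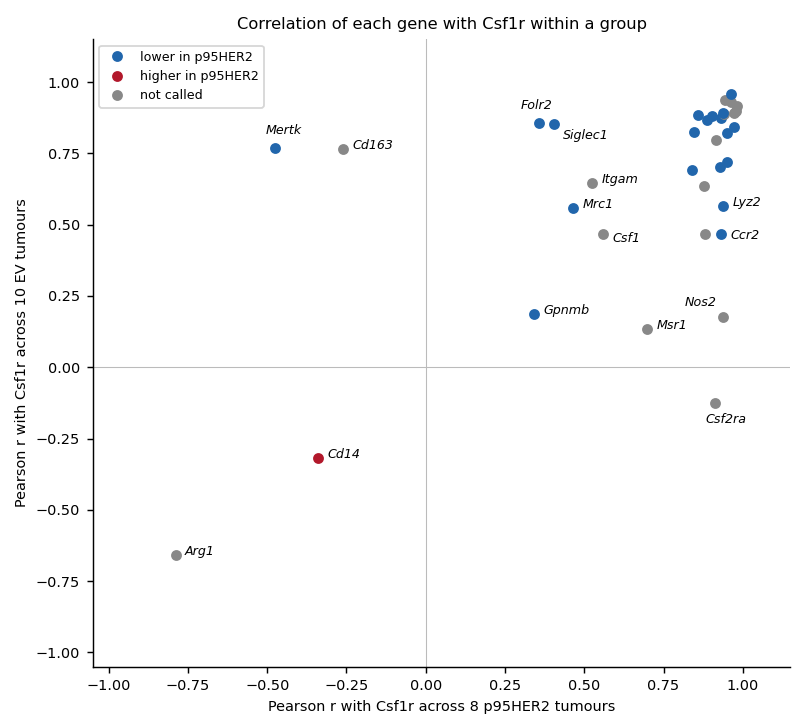
Pearson's r of each of 36 genes with Csf1r among the 8 p95HER2 tumours (x axis) and among the 10 EV tumours (y axis), 1 point a gene. Nos2 and Csf2ra lie at high r in p95HER2 tumours and low r in EV tumours, Folr2 and Siglec1 the reverse, and Arg1 is negative in both.

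The levels of Ptprc, the pan-leucocyte gene CD45, and of Csf1r moved with these falls. Ptprc averaged 21.1 ± 6.40 CPM in p95HER2 tumours and 39.9 ± 12.4 CPM in EV tumours (-0.92, SE 0.22, adjusted p = 0.0124). With each tumour's log2 Ptprc level as a term in edgeR, 0 of the 37 members were called, 5 had an unadjusted p under 0.05, and their median log2 fold change was 0.06. Over all genes that fit called 0.134% lower and 0.555% higher, so few genes of any kind were called. With the Csf1r level in its place, 0 members were called lower and Nos2 was called higher (1.17, adjusted p = 0.039), against 0.695% and 1.72% of all genes, and 10 members had an unadjusted p under 0.05. The lowest values then were Gpnmb at -0.72 (adjusted p = 0.190) and Folr2 at -0.55 (adjusted p = 0.335). No other tool was run with these terms. A covariate that itself differs between the groups takes up part of the group difference, and the genotype and the general leucocyte level cannot be told apart in these fits.

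**Figure D5:**
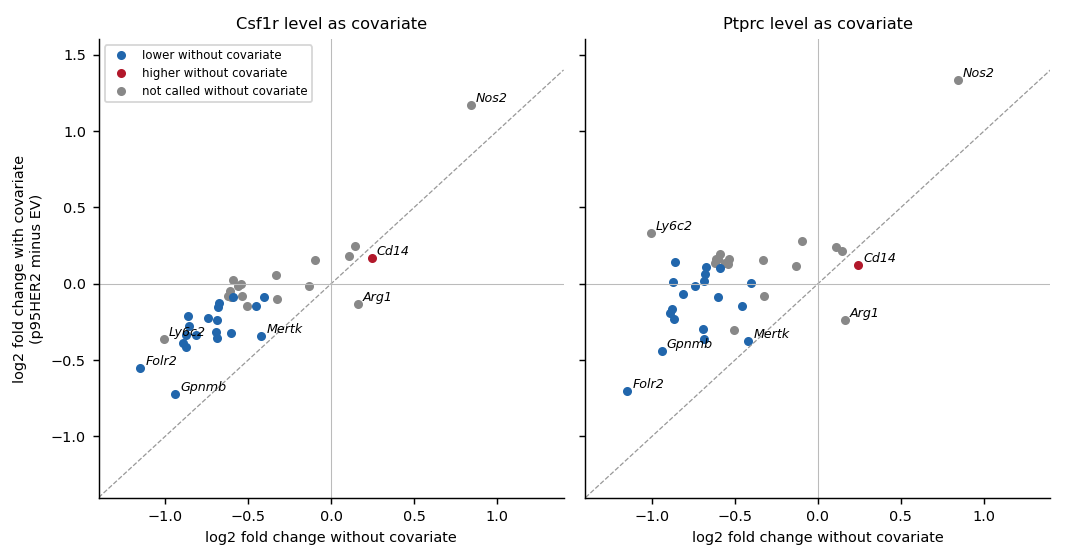
Log2 fold change of each of the 37 genes, p95HER2 minus EV, without a covariate (x axis) against the value with the Csf1r level (left) or the Ptprc level (right) as a term (y axis). Most points move toward 0, with the median at -0.13 with Csf1r and 0.06 with Ptprc. Nos2 moves away from 0, to 1.17 with Csf1r and 1.33 with Ptprc, and Csf1, Csf2ra and Cd14 also stay positive with both.

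Other myeloid genes were counted in 7 lists of 74 genes, of which 67 were tested, 17 fell and 4 rose, with a median log2 fold change of -0.17. Over all genes tested 4.45% were called lower and 5.73% higher. The share of these genes that rose was close to that of all genes. In any of the short lists below, 1 called gene is little to go on. Transcription factors of macrophages fell in 5 of 10 cases with 0 higher (DESeq2 and voom also 0, 1 at an unadjusted p under 0.05), among them Zeb2 (-0.58, adjusted p = 0.00153), Maf (-0.70, adjusted p = 0.00358) and Nr1h3, the oxysterol receptor LXR alpha (-0.91, adjusted p = 0.00496). Of 13 tested recruitment and growth genes, 3 fell and 2 rose. Ccl8, a monocyte-attracting chemokine, averaged 9.85 ± 3.99 CPM in p95HER2 tumours and 21.6 ± 5.73 CPM in EV tumours (-1.13, adjusted p = 0.00774). Spp1, the secreted phosphoprotein osteopontin, averaged 966 ± 436 CPM in p95HER2 tumours and 395 ± 174 CPM in EV tumours (1.29, adjusted p = 0.00877), and Csf3, the neutrophil growth factor G-CSF, 3.91 ± 2.53 CPM in p95HER2 tumours and 1.71 ± 0.924 CPM in EV tumours (1.19, adjusted p = 0.0242). All 9 genes of the list with a negative log2 fold change were chemokines, and the other 2 that fell, named here after their values were seen, were Ccl5 (-1.23, adjusted p = 0.0353) and Ccl12 (-0.69, adjusted p = 0.0354).

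Inflammatory activation genes were split, with 5 of 10 negative, 5 positive and a median log2 fold change of -0.06. Those that fell were 3, namely Cd40 (-0.65, adjusted p = 0.0316), Cd86 (-0.69, adjusted p = 0.0338) and Cybb, the NADPH oxidase subunit of phagocytes (-0.74, adjusted p = 0.0397). None was called higher by edgeR or voom and 1 by DESeq2. Among the positive ones, named after their values were seen, were the cytokine genes Tnf at 0.43 (unadjusted edgeR p = 0.0121, adjusted p = 0.0837), Il6 at 0.44 (adjusted p = 0.346) and Il1b at 0.38 (adjusted p = 0.568). Of 8 tested genes of alternative activation 1 fell, the lectin Clec10a (-1.12, adjusted p = 0.00653), while Retnla at -1.12 (adjusted p = 0.278) and Il4ra at -0.12 (adjusted p = 0.404) were not called. Of 6 other resident-type genes 1 fell, Selenop (-0.79, adjusted p = 0.00208), while Cbr2 at 0.30 (adjusted p = 0.0768) and Stab1 at -0.28 (adjusted p = 0.118) were not called. Of 8 further lipid genes 3 fell and 1 rose. Lpl, lipoprotein lipase, had no p95HER2 tumour above 35.7 CPM and no EV tumour below 38.1 CPM (-0.84, adjusted p = 0.00110). Cd36, the fatty acid receptor, fell with a log2 fold change of -1.15 (adjusted p = 0.00152) and Abcg1, a cholesterol exporter, with -0.63 (adjusted p = 0.0114), and adipocytes express Lpl and Cd36 too. Lgmn, a lysosomal cysteine protease, fell as well (-0.39, adjusted p = 0.0351), and the lysosome list as a whole had a median log2 fold change of -0.04 over 12 genes.

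Markers of other cell types were counted too, beside 4.45% of all tested genes called lower and 5.73% called higher by edgeR. In lists this short 1 called gene is little to go on. Of 6 tested adipocyte genes 6 fell, with a summed level of 9.49 to 36.6 CPM in p95HER2 tumours and 29.0 to 128 CPM in EV tumours. All 10 T cell genes had a negative log2 fold change, with a median of -1.07 against -0.60 for the 37 members. Of the T cell genes 2 were called lower by edgeR, 3 by voom and 5 by DESeq2, 9 had an unadjusted p under 0.05, and their sum was 9.01 to 39.5 CPM in p95HER2 tumours and 16.3 to 89.4 CPM in EV tumours. B cell genes fell in 2 of 3 cases (0.919 to 3.54 CPM in p95HER2 tumours, 3.30 to 8.69 CPM in EV tumours). Neutrophil genes had a median log2 fold change of 0.33, with 1 of 8 lower and 1 higher, the higher one S100a8 (0.90, adjusted p = 0.000575). Of them 3 were called higher by voom, 1 by DESeq2, and 3 were higher at an unadjusted p under 0.05, and the list summed to 27.7 to 65.8 CPM in p95HER2 tumours and 27.1 to 46.0 CPM in EV tumours. Of 10 dendritic cell genes 1 rose and 0 fell by edgeR, DESeq2 or voom (2 lower at an unadjusted p under 0.05), with 65.4 to 113 CPM in p95HER2 tumours and 82.9 to 139 CPM in EV tumours. None of 3 tested mast cell genes was called by edgeR or voom, DESeq2 called 2 lower and 2 had an unadjusted p under 0.05, with sums of 152 to 313 CPM in p95HER2 tumours and 154 to 250 CPM in EV tumours. Nearly all of each sum was Kit, named after its values were seen, at 152 to 313 CPM in p95HER2 tumours and 150 to 248 CPM in EV tumours. No other gene of that list passed 1.84 CPM in any tumour (Cma1 in EV 2). Fibroblast genes had 1 of 8 lower, with 1500 to 3316 CPM in p95HER2 tumours and 1732 to 4197 CPM in EV tumours. The epithelial genes that define the labelled tumour cells were plentiful in every tumour, at 1823 to 2329 CPM in p95HER2 tumours and 1805 to 3187 CPM in EV tumours, with 1 of 7 lower. Skeletal muscle genes spread widely, from 296 to 2893 CPM in p95HER2 tumours and 95.5 to 5707 CPM in EV tumours, and 0 of 8 were called by edgeR, DESeq2 or voom, with 2 at an unadjusted p under 0.05. With the muscle level as a term 14 members were called lower and 1 higher, which was Nos2 (0.96, adjusted p = 0.0345), while Cd14 was not called (0.20, adjusted p = 0.0790). The share of all genes called in that fit is not given here. No marker was at 0 reads in every tumour, and the part of the other cell types in the members' values was not tested.

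Promoter sequence was read for the DNA letters GAGGAA, the core that PU.1 binds, since Spi1 fell together with many members. RefSeq promoters of build GRCm38.p6, 250 bases before to 50 after the start, were found for 27 of the 37 genes. GAGGAA on either strand (its reverse complement reads TTCCTC) was in 14 of the 27, or 51.9%, against 31.3% of 27025 promoters of the same length. It was in 8 of 16 genes that fell and in 6 of 11 that were not called, most of which also had a negative log2 fold change, so these counts do not compare genes that fell with genes that did not. The 200 bases before the start are shown for 5 genes that fell and for Csf2ra, which did not, each 5′ to 3′ on the gene's own strand with the motif in capitals. Every promoter shown holds the motif, and none of those without it is shown.
Fcgr1, chr3:96293970-96294169, minus strand: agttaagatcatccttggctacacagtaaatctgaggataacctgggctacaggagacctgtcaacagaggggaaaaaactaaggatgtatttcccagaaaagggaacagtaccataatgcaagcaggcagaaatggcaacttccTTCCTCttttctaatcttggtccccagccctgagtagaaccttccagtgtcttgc
Laptm5, chr4:130913116-130913315, plus strand: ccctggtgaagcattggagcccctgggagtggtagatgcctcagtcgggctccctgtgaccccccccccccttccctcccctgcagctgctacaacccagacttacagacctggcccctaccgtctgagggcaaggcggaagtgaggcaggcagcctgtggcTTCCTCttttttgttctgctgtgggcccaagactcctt
Trem2, chr17:48346201-48346400, plus strand: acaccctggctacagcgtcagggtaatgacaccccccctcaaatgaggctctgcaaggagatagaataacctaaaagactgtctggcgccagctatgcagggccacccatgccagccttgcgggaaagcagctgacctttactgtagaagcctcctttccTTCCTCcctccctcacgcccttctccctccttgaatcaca
Aif1, chr17:35176053-35176252, minus strand: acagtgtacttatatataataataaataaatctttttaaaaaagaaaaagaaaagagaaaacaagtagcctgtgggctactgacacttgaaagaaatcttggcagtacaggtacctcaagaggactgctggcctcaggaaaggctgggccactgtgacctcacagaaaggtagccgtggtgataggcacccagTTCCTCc
Mrc1, chr2:14229214-14229413, plus strand: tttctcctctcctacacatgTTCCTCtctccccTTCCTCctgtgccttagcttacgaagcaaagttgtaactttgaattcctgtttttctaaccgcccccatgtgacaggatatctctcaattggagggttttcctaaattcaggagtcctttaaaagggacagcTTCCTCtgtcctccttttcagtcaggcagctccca
Csf2ra, chr19:61228419-61228618, minus strand: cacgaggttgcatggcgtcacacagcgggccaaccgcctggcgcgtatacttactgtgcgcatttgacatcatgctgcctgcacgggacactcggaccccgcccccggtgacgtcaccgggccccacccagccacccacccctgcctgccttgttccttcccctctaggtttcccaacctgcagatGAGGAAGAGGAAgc
In Fcgr1, Laptm5 and Trem2 a single match begins 55, 38 and 40 bases before the start, in Aif1 7 bases before it, and in Mrc1 3 matches begin 180, 167 and 35 bases before it. Csf2ra, at a log2 fold change of 0.11, carries 2 matches in a row, 14 and 8 bases before its start. A match is a stretch of letters and not a measured binding site.

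The calls differed in how far they rested on single tumours. Of the 20 called members, 8 were called in each of the 18 fits that left out 1 tumour: Adgre1, Fcgr1, Folr2, Gpnmb, Lyz2, Ms4a6c, Ms4a7 and Trem2. The other 12 lost the call in some fits, from 2 fits for Spi1 (without p95HER2 1 or 2, adjusted p up to 0.0550) to 12 for Aif1 and Ccr2 and 15 for Fcgr3 (adjusted p up to 0.0900, 0.0808 and 0.0986). Cd14, Cd68 and Cx3cr1 lost it in 11 fits each, Laptm5 in 10, Siglec1 in 9, Mertk in 7, and Mpeg1 and Mrc1 in 4. The number of members called lower was 19 with all tumours. It was 8 without p95HER2 1, 10 without p95HER2 2, EV 2 or EV 5, 11 without p95HER2 4 or p95HER2 5, and 12 without p95HER2 7, EV 6 or EV 7. Without EV 3 it was 26, and the 3 C1q genes, Csf1r, Apoe, Fcer1g and Itgam were then called lower. Nos2 was called higher without p95HER2 4, EV 7 or EV 8. The share of all genes called in each of these fits is not given here.

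Members with exons that overlap a gene on the opposite strand were Ms4a6c, Csf1r, Cx3cr1, Fcgr2b and Folr2, and since no source used here gives the strand option of the counting, their levels may hold reads of the neighbour.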

How the data were processed

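RNA was sequenced from 18 PB2 tumours, 8 p95HER2 and 10 EV. Per the labels' protocols, mRNA was enriched and directional libraries were made. The authors deposited whole-number read counts per Ensembl gene, 1 column a tumour, not normalized, and the submitters' processing notes name the tools STAR 2.5 and HTSeq 0.6.1 and the build mm10. The sources used here do not state the strand option or the annotation release. Library totals ran from 32686558 to 38464541 reads, and every p95HER2 total lay below every EV total.

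The tests used edgeR 4.0.16 in R 4.3.3: filterByExpr (minimum count 10, total 15), TMM scaling, a robust quasi-likelihood F-test of p95HER2 against EV, and adjustment over all 17123 genes kept. CPM is count divided by the TMM-scaled total; within-tumour differences and correlations used log2(CPM + 0.5). The 95% intervals are the log2 fold change with its SE and a t quantile at 16 degrees of freedom. On simulated counts for this comparison, over 16972 genes, the test called 19 of 49 genes changed 1.25-fold, 30 of 48 changed 1.5-fold, 43 of 49 changed 2-fold, 50 of 50 changed 4-fold and 8 of 16776 unchanged genes. Coordinates and exon lengths come from a GENCODE M21 annotation of the same build, and promoters from RefSeq.

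The named genes were all 37 members, the 3 genes of smallest p in each related list, the 2 of smallest p in each marker list, Ptprc and Erbb2, of which 2 genes are not reported here. Members and lists were chosen with earlier results of these data known. Alternatives were RLE scaling, library totals, no filter, a filter at 1 CPM, thinned libraries, DESeq2 1.42.0, limma 3.58.1 with voom, covariates, removal of muscle and adipocyte genes, and each tumour left out. The correlations of the other 31 genes, and the gene pairs with their pseudocount and left-out tumours, were added after the data were seen. The most similar 2 libraries still differed beyond sampling noise, and all 18 were kept.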

Additional observations from a re-analysis of the deposited data

Results flagged for a closer look

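In 14 of 152 sets of values, a gene in 1 group, the highest or lowest tumour stood apart from the rest by Dixon's 95% criterion, where chance gives about 1 in 20. EV 7 was the high tumour in 7 of them: Mpeg1 at 331 CPM (next highest 208), C1qc at 224 CPM (146), Cd86 at 12.7 CPM (8.52), Fcer1g at 79.7 CPM (52.3), Tyrobp at 59.7 CPM (38.1), Gpnmb at 44.3 CPM (21.5) and Abcg1 at 26.9 CPM (16.2). EV 3 was the lowest EV tumour for Itgam, at 4.34 CPM with the next at 6.69 CPM. Cd163 was high in EV 5, at 9.95 CPM with the next at 5.95 CPM.

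Outside the members, Csf3 was high in p95HER2 8 at 9.72 CPM (next 4.40) and in EV 1 at 4.09 CPM (next 1.95). Lpl was high in EV 9 at 75.9 CPM (next 54.5). EV 1 was also high for the neutrophil gene Clec4d at 9.91 CPM (next 6.12) and for the keratin gene Krt14 at 269 CPM (next 94.5). Without EV 7 the number of members called lower was 12, against 19 with all tumours, and without EV 3 it was 26. The share of all genes called without either tumour is not given here.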

How the results depend on the processing

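No paired analysis was possible because the labels give no replicate numbers, and the numbers used here only name a tumour. All 37 members kept direction and call under RLE scaling, library totals, the 1 CPM filter, and removal of muscle and adipocyte genes. The 19 members called lower became 9 with no filter, 25 with DESeq2 and 21 with voom, 0 with the Ptprc or the Csf1r level as a term, and 8 to 26 with 1 tumour left out. Among these alternatives the share of all genes called is given above only for the Ptprc and Csf1r terms. How far the other counts moved with the calls over all genes was not tested. The number called higher, 1, became 0 with no filter, thinned libraries or the Ptprc term, 2 with DESeq2 and voom, and 0 to 2 with 1 tumour left out. Related genes called lower, 17, became 0 with Ptprc, 5 with Csf1r and 11 to 20 with 1 left out (11 without p95HER2 1, p95HER2 4, EV 5 or EV 7); those called higher, 4, became 2 with no filter, 0 with either term and 3 to 5 with 1 left out. Members with every p95HER2 tumour below every EV tumour numbered 0 to 2 with 1 left out (2 without EV 3). The share of all genes in those sets is not given here. The members' median relative to Csf1r, -0.06, ran from -0.09 to -0.03. The gap in Nos2 minus Arg1, 0.65, ran from 0.49 to 0.83 with 1 left out. Correlations with Csf1r without the 2 farthest tumours were 0.58 (C1qa, EV), -0.37 (Arg1, p95HER2), -0.23 (Arg1, EV), 0.61 (Ly6c2, p95HER2) and -0.52 (Csf1, EV, reversed).

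With the Ptprc term these turned sign: Mpeg1 0.0617, Aif1 0.14, Laptm5 0.10, Msr1 0.12, Csf1r 0.13, Spi1 0.02, Ccr2 0.0129, Ly6c2 0.33, Cx3cr1 0.11, C1qa 0.14, C1qb 0.16, C1qc 0.16, Fcgr3 0.0082, Fcgr2b 0.16, Fcer1g 0.19, Tyrobp 0.17, Apoe 0.14, Arg1 -0.24, Tlr2 0.28, Cd40 0.0404, Cd86 0.0383, Cybb 0.15, Retnla 0.34, Stab1 0.11, Cd4 0.0105 and Ptprc itself 0.0018. With the Csf1r term they were Csf1r itself 0.0003, Fcgr2b 0.0560, Fcer1g 0.0239, Arg1 -0.13, Tlr2 0.15 and Stab1 0.0424. Each covariate differs between the groups and so takes up part of the contrast by construction. Without a covariate Ly6c2 had the largest SE of the members, at 0.40, followed by Nos2 at 0.28 and Folr2 at 0.27. A low level did not always go with a wide spread, as the SE of Mertk was 0.12.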
